A study of Mus musculus with 6 samples.

Results

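The interferon genes described here are 38 named genes of the mouse interferon system, chosen by gene symbol: the receptors, the transcription factors behind them, and a set of genes that interferon induces. On the arrays of the series, 36 of the 38 were named by a probe set with 1 gene symbol, through 48 probe sets of 22626 on the MOE430A array and 4 of 22511 on the MOE430B array. Isg15 was covered by a probe set that carries a further symbol, so no level is given for it, and Ifi44 is not analysed here. The cells were DR4 embryonic fibroblasts from day 15 mouse embryos, which serve as a feeder layer and were profiled beside lines of embryonic stem cells, whose arrays are not analysed here. DR4 mice carry several drug resistance genes, so that their fibroblasts survive the selection of stem cells. The groups are replicate 1, from 12x10e6 cells with RNA at 2.4 ug/ul, and replicates 2 and 3, each from 3x10e6 cells with RNA at 3.0 ug/ul. All of them were grown in D-MEM with 15% heat-inactivated serum, Glutamax, pyruvate, non-essential amino acids, penicillin and streptomycin, beta-mercaptoethanol and LIF. Dishes were coated with 0.1% gelatin and kept at 37 C in 5% CO2. The labels name no interferon treatment and no untreated counterpart, do not say whether the feeders had been stopped from dividing, and do not say whether the replicates were separate cultures or how many embryos gave the cells. The p-values below rest on the spread between replicates 2 and 3, pooled with that of all probe sets compared. That spread may thus be technical.

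Type I interferons bind the receptor pair IFNAR1 and IFNAR2, interferon gamma binds IFNGR1 and IFNGR2, and both pairs act through JAK kinases and STAT proteins. STAT2 and IRF9 are parts of the complex that binds the interferon-stimulated response element (ISRE) in the promoters of type I target genes, and gamma-activated sites (GAS) bind STAT dimers. The proteins made from those target genes block virus entry, degrade or sequester foreign RNA, or attack the vacuoles of intracellular microbes, and embryonic fibroblasts are a common cell in which this response is studied.

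Signals are MAS5 intensities, given for replicates 1, 2 and 3 in that order and, unless MOE430B is named, from MOE430A. The floor is the median signal of each array, which was 689, 685 and 734 for the MOE430A arrays. For MOE430B the medians were 849, 917 and 907. Probe sets differ in brightness, so their signals are not compared between genes. Of the 11 fibroblast markers all 11 lay above the floor on all 3 arrays of a type. Of 15 measured macrophage and leukocyte markers 4 did so (Lyz2, Csf1r, Laptm5 and Cd14), while Ptprc, which encodes the pan-leukocyte surface protein CD45, was at 56.9, 29.9 and 181. Of 7 endothelial markers 2 and of 10 pluripotency markers 2 were above the floor in the same way. On MOE430A, replicate 3 differed from replicates 1 and 2 in both scan day and fluidics station. On MOE430B all 3 shared the day, and replicate 1 had another station than replicates 2 and 3.

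Most of the interferon genes gave signal in these cells, for which no stimulus is named: 25 of the 36 measured genes (69.4%) had a probe set above the floor on all 3 arrays of a type, while 54.7% of all 18193 genes with 1 symbol did. A further 5 passed it on 1 or 2 arrays, and 6 genes on none. The receptors stood above it in 4 of 4 cases, the transcription factors in 6 of 8, and the induced genes in 15 of 24. With each array's 75th percentile as the floor 10 genes remained (27.8%, against 30.4% of all genes), so the members' lead over all genes was not present at that level.

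**Figure D1:**
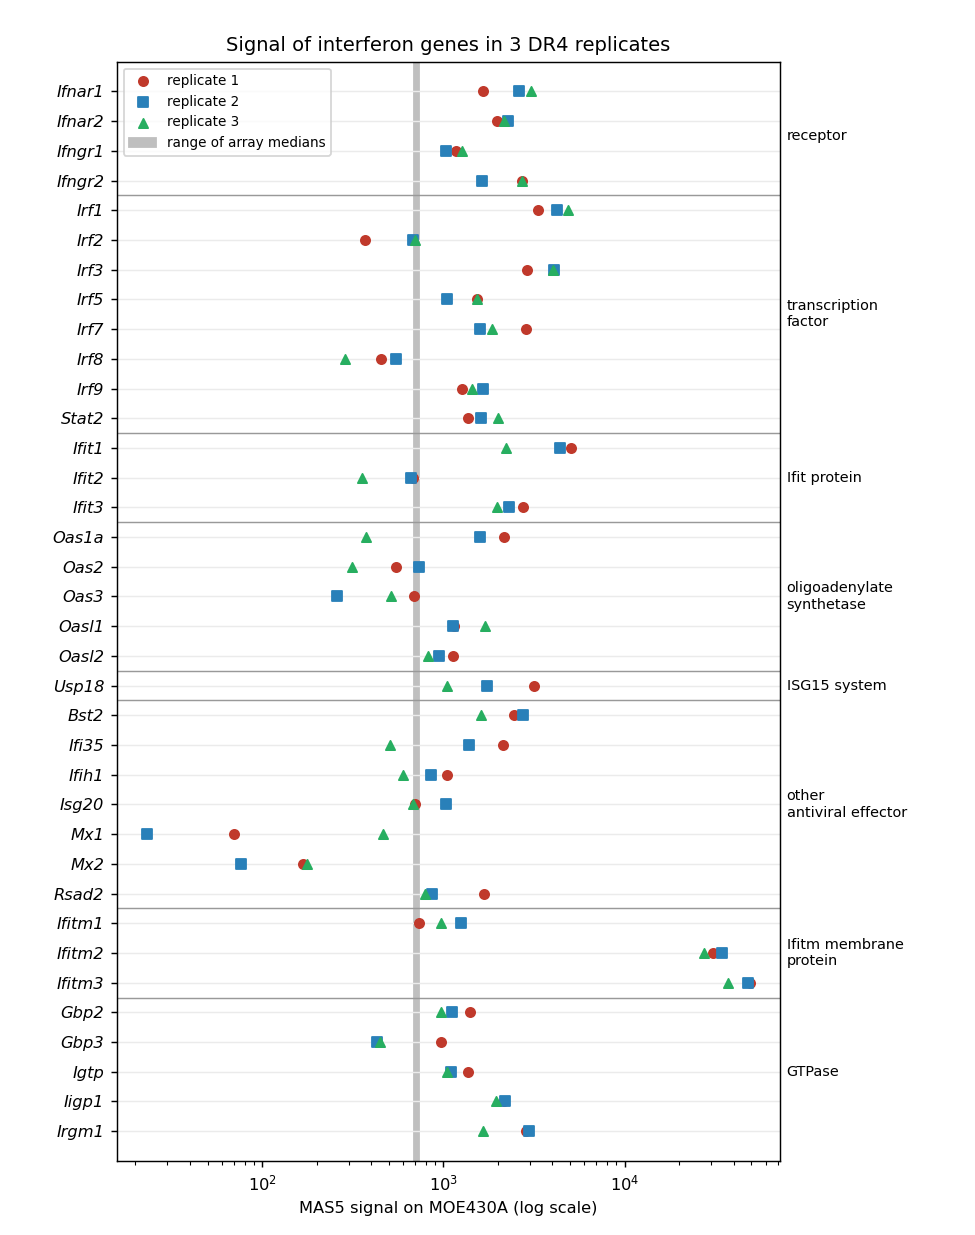
MAS5 signal on a log axis for the 36 measured interferon genes, ordered by role from receptors at the top to GTPases at the bottom, with 1 point for each of the 3 DR4 replicates and the brightest MOE430A probe set for each gene. The grey band spans the median signals of the 3 arrays; Ifitm2 and Ifitm3 lie far to its right, Mx1 and Mx2 to its left, and Oas1a, Ifi35 and Ifih1 have their replicate 3 point on the other side of the band from the other 2.

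All 4 receptor genes were above the floor on every MOE430A array through at least 1 probe set, and they include both chains of each receptor. Ifnar1, which encodes a chain of the type I receptor, had signals of 1658, 2602 and 3057. Its level was lowest in replicate 1, and the difference of replicate 1 from the mean of replicates 2 and 3 was -0.76 on the log2(signal + 16) scale (limma adjusted p = 0.614). The MOE430B probe set of Ifnar1 did not follow, at 1138, 1109 and 986. Ifnar2, its partner chain, had 1985, 2268 and 2151, with an SD of 0.10 on the log2 scale, below the median SD of 0.26 of all probe sets. A further Ifnar2 probe set on MOE430A stayed under the floor at 56.2 to 129, and the MOE430B probe set had 1108, 1891 and 2041, again lowest in replicate 1.

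For the interferon gamma receptor, Ifngr1, the ligand-binding chain, had 1169.8, 1032 and 1271. Ifngr2, the signalling chain, had 2718, 1627 and 2718 on 1 probe set and 2132, 2463 and 2055 on the other. The replicates order differently on the 2 Ifngr2 probe sets, with replicate 2 lowest on the first and highest on the second. No single order of the replicates therefore held for this gene.

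Among the transcription factors, Irf1, itself a rapid target of interferon gamma, had 3326, 4249.6 and 4851. Replicate 1 was lowest and replicate 3 highest. Stat2 followed the same order on its brighter probe set, at 1370.5, 1615 and 1995, and on the dimmer at 796, 724 and 1096 with replicate 3 again highest. Irf9, the DNA-binding partner of STAT2, had 1261, 1663 and 1433 and lay above the floor on every array.

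Irf3, the factor that turns on interferon beta after viral sensing and is made constitutively, had 2912, 4103 and 4028 on its brightest probe set. Its 3 other probe sets were dimmer and lowest in replicate 1 as well, among them 1 with 561, 906 and 1345. None of these 3 passed the floor on all arrays. The ID of the brightest ends in _x_at, an ending for sets whose probes can match several transcripts. Irf7, the factor that amplifies type I interferon production and is strongly inducible, had its highest value in replicate 1, with 2872, 1598 and 1852 (log2 difference 0.73, limma adjusted p = 0.639). Irf5, which acts downstream of Toll-like receptors, had 1526, 1044 and 1524, with replicates 1 and 3 nearly equal, and 704, 634 and 667 on a dimmer probe set. Irf2, a partner and antagonist of IRF1, reached 371, 685 and 699, with no array above its floor. Irf8, a factor of macrophages and dendritic cells, was also under the floor on all arrays, at 454, 548 and 286 on 1 probe set and at 132 to 140.1 on the other.

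For the induced genes, promoter sequences were searched for the elements through which interferon is known to act. The RefSeq promoter table (GRCm38.p6) held 33 of the 38 genes, 12 receptors and transcription factors and 21 induced genes. The 250 bases before the gene start were searched on both strands for GAAANNGAA, the core of the ISRE, and for TTCNNNGAA, the GAS pattern, where overlapping matches were each counted. The ISRE core was found in 13 of the 21 induced genes (61.9%), in 2 of 12 receptors and transcription factors (16.7%), and in 8.18% of all 27025 genes in the table. The GAS pattern was found in 5 of the 21 induced genes (23.8%), in 4 of 12 receptors and transcription factors (33.3%) and in 8.13% of all genes. A match is a description of the letters and not proof of a bound site.

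The windows below were picked with the values in view, from genes that hold a match. Ifit1, Ifit3, Gbp2, Igtp, Rsad2 and Oas1a, with the ISRE core, carry the replicate pattern described further on, Rsad2 on its brightest probe set only. Irf1 with a GAS pattern and Stat2 with an ISRE core belong to the signalling side. Oasl2, Ifi35 and Ifitm3 carry the same replicate pattern with no ISRE core match. Gbp3 and Oas3, with means under the floor, hold the ISRE core and were lowest in replicate 2. Bst2 and Irgm1 hold it too, were lowest in replicate 3 but highest in replicate 2, and are not shown. The choice of windows thus does not tie the element to the pattern. Each is given 5′ to 3′ on the strand of its gene, with the matches in capitals. The ISRE core appears either as written above or as its reverse complement, and neighbouring matches that overlap form 1 longer run of capitals.
Ifit1, chr19:34640765-34640828, plus strand: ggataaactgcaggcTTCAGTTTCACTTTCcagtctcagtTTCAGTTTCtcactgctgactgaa
Ifit3, chr19:34583359-34583450, plus strand: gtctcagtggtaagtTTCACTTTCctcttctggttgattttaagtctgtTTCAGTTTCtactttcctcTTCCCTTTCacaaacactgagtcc
Gbp2, chr3:142620590-142620628, plus strand: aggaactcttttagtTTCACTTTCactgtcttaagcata
Igtp, chr11:58199496-58199545, plus strand: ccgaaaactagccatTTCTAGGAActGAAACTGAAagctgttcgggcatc
Rsad2, chr12:26456548-26456586, minus strand: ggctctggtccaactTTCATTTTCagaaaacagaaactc
Oas1a, chr5:120907526-120907638, minus strand: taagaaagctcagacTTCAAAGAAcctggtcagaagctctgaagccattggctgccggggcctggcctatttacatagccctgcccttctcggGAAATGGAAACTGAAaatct
Irf1, chr11:53769909-53769947, plus strand: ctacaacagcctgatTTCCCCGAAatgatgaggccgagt
Stat2, chr10:128270262-128270300, plus strand: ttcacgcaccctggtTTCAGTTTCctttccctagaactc

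Ifit1 and Ifit3 each held 3 matches of the ISRE core in their windows, and Oas1a held 2 that overlap, close to the gene start. In Igtp a GAS pattern lies just upstream of the ISRE core, and in Oas1a a GAS pattern lies further upstream. Irf1 had the GAS pattern and no ISRE core within these 250 bases.

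The Ifit genes encode tetratricopeptide repeat proteins that bind foreign RNA. Ifit1 had signals of 5036, 4426 and 2230, Ifit3 had 2764, 2290.1 and 1983, and Ifit2 had 681, 660.2 and 355. Replicate 3 was the lowest in each of the 3 genes, and for Ifit1, at 3897 ± 1476 (SD, n = 3), replicate 1 was 2.26-fold above replicate 3. Ifit2 was under the floor on every array, so its order is that of dim values.

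The oligoadenylate synthetases make the messenger that activates the RNA-degrading enzyme RNase L when they meet double-stranded RNA. Oas1a had 2161, 1599 and 373, above the floor in replicates 1 and 2 and under it in replicate 3. Its SD over the replicates was 1.33 on the log2 scale, the widest of the members above the mean floor. Oasl2 had 1135, 949.6 and 828, also lowest in replicate 3. Oasl1, a synthetase-like protein that represses Irf7 translation in mice, had 1151, 1124 and 1700.4 and was highest in replicate 3. Oas2 (550.03, 733 and 314) passed the floor in replicate 2, and Oas3 (686, 260 and 515) on no array.

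Usp18, the protease that removes ISG15 from proteins and dampens type I receptor signalling, had 3166, 1745 and 1046. Its mean was 1986 ± 1080 (SD, n = 3), and replicate 1 was 3.03-fold above replicate 3. It had the highest such ratio among the members above the floor on all 3 arrays.

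The other antiviral effectors were mixed. Bst2, tetherin, which holds budding virus at the cell surface, had 2440.1, 2765 and 1604. Rsad2, viperin, had 1674, 867 and 794 on its brightest probe set, but 685, 845 and 779 on another and 339 to 431 on the dimmest, so its higher value in replicate 1 rested on 1 probe set. Ifih1, the cytosolic RNA sensor MDA5, had 1049, 853 and 597, and the replicate 3 value was under the floor. Isg20, an RNA exonuclease, had 698, 1029 and 676. Mx1, a GTPase that blocks influenza virus in mice, had 70.01, 23.2 and 463, and Mx2 had 168, 76.2 and 178, all under the floor.

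Ifi35, an interferon-induced protein with a leucine zipper, was measured on both array types. On MOE430A it had 2123, 1382 and 511, and replicate 3 fell under the floor. On MOE430B, where all arrays shared a scan day, 1 of its probe sets had 21576, 18771 and 10490.0, with replicate 3 again lowest and replicate 1 2.06-fold above it. The other MOE430B probe set had 6326, 7328 and 7046 and did not show that order. The ID of the first ends in _s_at and that of the second in _x_at, endings that Affymetrix gives to sets whose probes can match several transcripts.

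The membrane proteins IFITM2 and IFITM3, which stop viruses at the endosome, had probe sets far above the floor. Ifitm3 had 49122, 47949 and 37397, and Ifitm2 had 30803, 34626 and 27414. Both were lowest in replicate 3, and their SDs of 0.22 and 0.17 were below the median of all probe sets. Ifitm1 had 737, 1259 and 968, close to the floor in replicate 1. The 3 genes are similar in sequence and lie on chromosome 7, and shared hybridization between their probe sets was not tested.

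The interferon-inducible GTPases include the guanylate-binding proteins and the immunity-related GTPases, which act on vacuoles that hold parasites and bacteria. Irgm1 had 2862, 2977 and 1645, Igtp (also called IRGM3) had 1364, 1099 and 1053, and Gbp2 had 1400.2, 1113 and 976. In all 3 replicate 3 was lowest. Iigp1 had 2152, 2199.8 and 1963, with an SD of 0.09 on the log2 scale, the narrowest of the member probe sets above the mean floor. A second Iigp1 probe set was under the floor at 57.3, 605 and 163, and a second Gbp2 probe set had 513, 826 and 521. Gbp3 had 974, 428 and 447 and passed the floor in replicate 1 alone.

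The labels record 1 difference among the arrays of a type, the cell number and RNA concentration of replicate 1, and the interferon genes were compared on it with limma. The fit took every probe set that was brighter, in its mean log2 signal, than the mean log2 floor. Of the 48 MOE430A probe sets of the members 32 passed that filter, and 0 of the 32 were called at an adjusted p of 0.05, against a background of 0.705% of 11066 probe sets called. At an unadjusted p under 0.05 there were 6 of 32, against 8.13% of all probe sets, and with an eBayes intensity trend 0 were called. The 6 were Usp18, Oas1a, Ifi35 and 1 probe set of Rsad2, higher in replicate 1, and Ifnar1 and 1 probe set of Irf3, lower in it. Usp18 had a log2 difference of 1.22 (SE 0.39, adjusted p = 0.19), Oas1a of 1.46 (adjusted p = 0.263) and Ifi35 of 1.32 (adjusted p = 0.223). On MOE430B 0 of 4 probe sets were called, where 0% of all 10594 were called, and 0 of 4 had an unadjusted p under 0.05, against 7.24% of all. A single array faced a pair, so the fit had 1 residual degree of freedom and took the spread of replicate 1 to be that of the pair. On MOE430A the pair differed in scan day and station, so any effect of these is part of that spread. The spread pooled over all probe sets weighed as 25.6 degrees of freedom on MOE430A and 3.49 on MOE430B. The SEs thus rest mostly on the pooled spread and less on the gene's own.

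The induced genes and the signalling genes differed in which replicate was lowest. These 2 classes, and the look at replicate 3, were chosen after the values were seen, and the counts are a description with no test. Of the 19 induced probe sets above the mean floor on MOE430A, 16 were lowest in replicate 3 (84.2%), against 33.6% of all 11066 probe sets. The order replicate 1, then 2, then 3 from high to low held for 11 of the 19, against 18.6% of all. Of the 13 probe sets of receptors and transcription factors, 1 was lowest in replicate 3 (7.69%) and 7 were lowest in replicate 1 (53.8%), against 35.6% of all. That class also holds Irf1 and Irf7, which are inducible themselves, and neither was lowest in replicate 3. The 2 classes thus do not divide inducible genes from all others. The median of replicate 1 minus replicate 3 was 0.48 for the induced probe sets and -0.18 for the receptors and transcription factors, while that of all probe sets was -0.02.

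**Figure D2:**
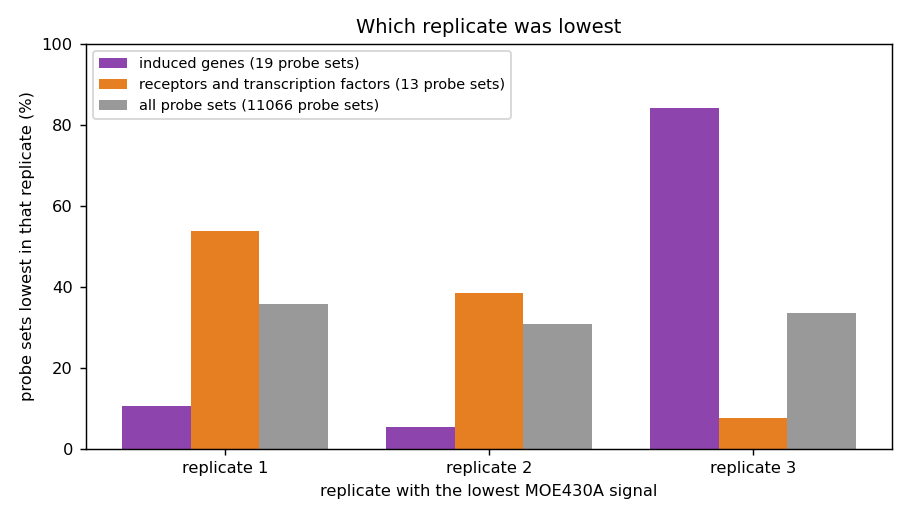
Percent of MOE430A probe sets whose lowest signal fell in replicate 1, 2 or 3, for the 19 induced probe sets, the 13 of receptors and transcription factors, and all 11066 compared. The induced bar reaches 84.2% in replicate 3, while the bars of all probe sets lie between 30.8% and 35.6%.

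Within the scan day and station that replicates 1 and 2 shared, the induced probe sets differed less. The median of replicate 1 minus replicate 2 was 0.19, with 12 of 19 higher in replicate 1. That of replicate 2 minus replicate 3 was 0.36, with 18 of 19 higher in replicate 2. Over all 11066 probe sets both medians were -0.008, with 5467 higher in replicate 1 than in replicate 2 and 5442 higher in replicate 2 than in replicate 3. For the receptors and transcription factors the medians were -0.21 and -0.23, so these did not differ less within the shared day. On MOE430A replicate 3 and its scan day cannot be told apart. On MOE430B, where the day was shared, only the 2 Ifi35 probe sets represent the induced members, and they disagree as given above. More than 2-fold higher in replicate 1 than in replicate 3 were 5 of the 19 (Oas1a, Ifi35, Usp18, Ifit1 and 1 probe set of Rsad2), against 2.79% of all probe sets. Oas1a and Ifi35 were under the floor in replicate 3 and passed the filter on the mean through replicates 1 and 2, so the sizes of their differences are not settled. Ifih1 and Isg20, also among the 16 lowest in replicate 3, were under the floor there and passed the filter in the same way. Of the 14 induced probe sets that passed the floor on each of the 3 arrays, 3 differed by more than 2-fold (Usp18, Ifit1 and Rsad2), against 1.76% of all 9600 such probe sets, and 12 were lowest in replicate 3, against 33.8%. With no filter 18 of 28 were lowest in replicate 3 (64.3%), against 31.6% of all.

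**Figure D3:**
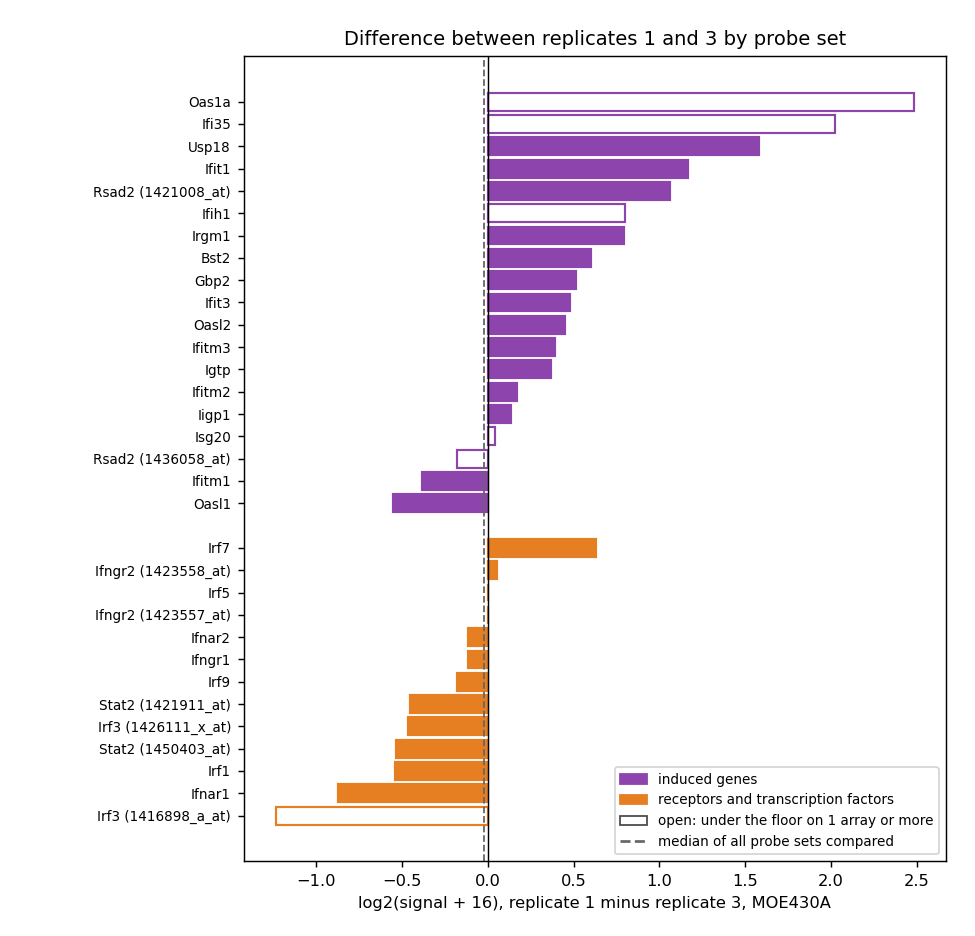
Replicate 1 minus replicate 3 on the log2(signal + 16) scale for each of the 32 MOE430A probe sets of the members above the mean floor, with induced genes above and receptors and transcription factors below. Open bars are probe sets under the floor on at least 1 array, Oas1a and Ifi35 among them; of the induced bars 16 of 19 point right, Usp18 at 1.58 and Ifit1 at 1.17 with all arrays above the floor, and the dashed line marks the median of all probe sets at -0.02.

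Marker lists were read over the same arrays. The summed MOE430A signal of the 15 macrophage and leukocyte markers was 11831, 11453 and 9779, lowest in replicate 3. Probe by probe there was no such order: of the 8 macrophage and leukocyte probe sets above the mean floor 3 were lowest in replicate 1, 2 in replicate 2 and 3 in replicate 3, and their median of replicate 1 minus replicate 3 was 0.02. The lysozyme gene Lyz2 (2279, 2443 and 1367) and the lysosomal Laptm5 (1875, 1182 and 768) were lowest in replicate 3, as was Cd68 by little (731, 781 and 707). Csf1r, the receptor for the macrophage growth factor, was not (1945, 1694 and 1940.4), nor was Cd14 (801, 1392 and 970.1). Outside the 8, with a mean under the floor, the adaptor Tyrobp was lowest in replicate 3 (805, 771 and 205). Cd53, a leukocyte tetraspanin also outside the 8, was highest in replicate 3 (459, 522 and 922). The summed signal of the 11 fibroblast markers was 639535, 727788 and 808044, lowest in replicate 1 like most of the receptors and transcription factors, and 13 of the 19 fibroblast probe sets above the mean floor were lowest there. The collagen genes Col1a2 (119800, 147295 and 169211) and Col1a1 (80483, 107005 and 133057) and the matrix protein gene Sparc (103001, 103466 and 122123) were lowest in replicate 1. Vim, which encodes the filament protein vimentin (164029, 130581 and 153518), and Thy1 (38911, 35603 and 16217) were highest in replicate 1. None of these marker genes had a signal of 0. Their part in either pattern was not tested. In bulk RNA a smaller number of cells of a type and less RNA per cell cannot be told apart.

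The induced genes were also divided by the ISRE core in their promoters, genes under the floor included. Of the 24 measured, Usp18, Oas2, Iigp1, Mx1 and Mx2 had no promoter entry and are left out. Usp18, Oas2 and Iigp1 were lowest in replicate 3, while Mx1 and Mx2, under the floor, were highest there. Of all MOE430A probe sets with no filter, 31.6% were lowest in replicate 3. Of the 12 measured induced genes with a match, 10 were lowest in replicate 3, with a median replicate 1 minus replicate 3 of 0.70 and a range from 0.17 to 2.48. Of the 7 without a match, 5 were lowest in replicate 3, with a median of 0.39 and a range from -0.56 to 2.02. The ranges overlap, and their upper ends, from Oas1a and Ifi35, rest on replicate 3 values under the floor. Ifi35 had neither pattern in the bases searched.

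The members varied over the replicates somewhat more than all probe sets did. The median SD over the 3 replicates was 0.31 on the log2 scale for the 32 member probe sets and 0.26 for all 11066, or coefficients of variation of 21.5% and 17.9%. The induced probe sets had a median SD of 0.33 and the receptors and transcription factors 0.28. Usp18 had an SD of 0.79, and Ifi35 and Oas1a, under the floor in replicate 3, had 1.04 and 1.33.

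**Figure D4:**
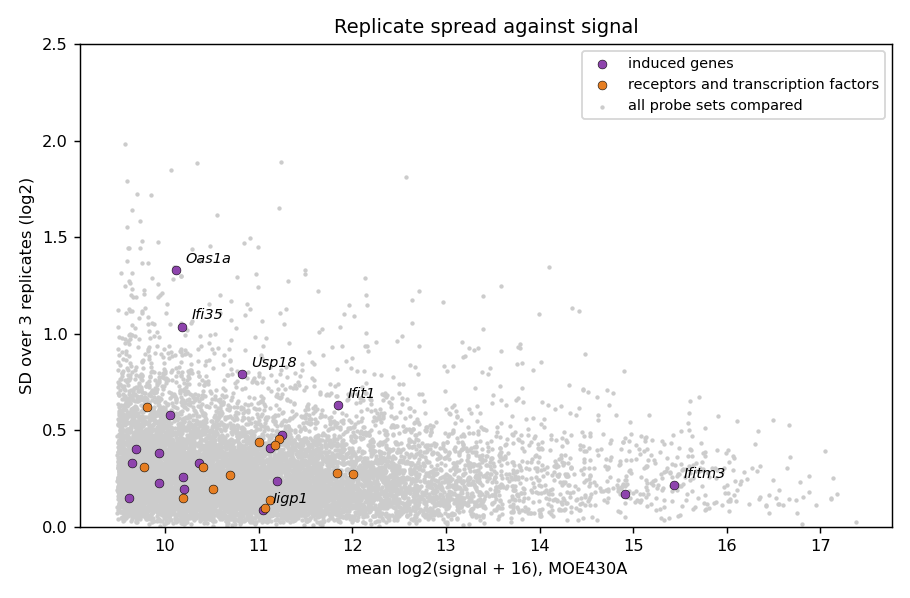
SD over the 3 replicates against the mean, both on the log2(signal + 16) scale, for MOE430A probe sets above the mean floor, with induced genes, receptors and transcription factors drawn over all probe sets in grey. Oas1a, Ifi35 and Usp18 stand at SDs of 1.33, 1.04 and 0.79, and Iigp1 near the bottom at 0.09.

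The rest of the pathway was read from lists of genes that are not members. None of the 9 measured interferon genes themselves was above the floor on all 3 arrays, and their mean signals ran from 49.5 to 749. Ifnab, of the interferon alpha family, was at 732, 882 and 632, and Ifnb1, interferon beta, which fibroblasts make on infection, was at 595, 593 and 214. Of 9 kinases, phosphatases and feedback regulators 8 were above the floor, among them Jak1, the kinase shared by both receptor pairs (10508, 10114 and 9246), the feedback inhibitor Socs3 (2478, 3603 and 3959), the phosphatase Ptpn1 (2939, 3139 and 3444) and Pias1 (2519, 2193 and 2533). Of 14 nucleic acid sensors and adaptors 9 were above it, including the RNA sensor Ddx58 (15274, 14468 and 12521 on MOE430B), the DNA sensor Cgas (3161, 2714 and 3448 on MOE430B), and the adaptors Ticam1 (5363, 6662 and 7602 on MOE430B) and Myd88 (2643, 2320.0 and 1802).

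Of 33 other interferon-induced genes measured, 18 were above the floor, among them Ifi27 (38985, 29991 and 36345 on MOE430B), Ly6e (21036, 18499 and 19724 on MOE430B), Xaf1 (16854, 11233 and 7828 on MOE430B) and the secreted Lgals3bp (10957, 10935 and 10704). These genes did not share the order of the induced members on MOE430A. There 6 of their 21 probe sets above the mean floor were lowest in replicate 3, against 33.6% of all probe sets. The median of replicate 1 minus replicate 3 was -0.09, where that of all probe sets was -0.02. On MOE430B 8 of 16 were lowest in replicate 3, against 34.5% of all probe sets there, with a median of 0.31 where that of all probe sets was 0.02.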

How the data were processed

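The 6 arrays, 3 MOE430A and 3 MOE430B from Affymetrix, carried biotin-labelled RNA, per the labels. The authors deposited signal intensities, 1 column for each array; MAS5 is credited to the submitters' processing notes, and its settings are unknown here. The mean signal without the top and bottom 2% of rows was 1499.9 on MOE430A and 1499.8 on MOE430B, so each array had been scaled to a target. Levels of the array types were set against each other only in choosing the brightest genes of a list to name. Instrument records, other values in the deposited files, gave scan day and station.

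Control probe sets (64 per type) were left out after the floors were set. GEO's platform annotation pairs 20380 probe sets of MOE430A with 1 symbol, 691 with several and 1555 with none; on MOE430B the numbers are 14661, 245 and 7605. Symbols were updated against RefSeq. Within each type, limma compared replicate 1 with the other replicates, using version 3.58.1 in R 4.3.3 (lmFit and eBayes on log2(signal + 16), Benjamini-Hochberg adjustment over all probe sets whose mean log2 signal exceeded the mean log2 floor). Fold changes on that scale understate the change of dim genes. The number of arrays limits precision.

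A gene is given by its brightest MOE430A probe set, other probe sets where they differ. All measured members are given; from the other lists the 4 brightest above the floor are named, or up to 3 where most lie under it. Cd14, Cd68, Ptprc, Tyrobp, Cd53 and Thy1 fall outside that rule. They, like the 2 classes of members, were picked with their values in view. Members, lists and tests were chosen with earlier results of these data known. Arrays could not be paired across types for a test. Alternatives covered the floor, the pseudocount, the filter, quantile normalization, the eBayes trend and leaving out each replicate.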

Additional observations from a re-analysis of the deposited data

How the results depend on the processing

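No paired analysis was possible because shared replicate numbers link MOE430A only with MOE430B, and the array types were never compared in a test. The count of 25 members above the floor on all 3 arrays was 10 with each array's 75th percentile as the floor (27.8%, against 30.4% of all genes). It was 34 with a fixed signal of 200 (94.4%, against 79.7%) and 25 with the highest tryptophan control (69.4%, against 44%). It was 23 when only the first-listed probe set of a gene counted (63.9%, against 47%), and 23 without probe sets ending in _x_at or _s_at (65.7%, against 53%). Leaving out 1 replicate gave 25 to 28 (69.4% to 77.8%, against 57.4% to 58.3%). No member probe set was called by limma under any of the pseudocounts, filters, normalizations or eBayes settings tried on either array type. Leaving out replicate 2 or 3 leaves no residual degree of freedom, so those counts were not run. The median of replicate 1 minus the mean of replicates 2 and 3 over the 32 member probe sets was 0.13 on MOE430A, between 0.03 and 0.09 with 1 replicate left out, and 0.03 within the shared scan day and station. Over the 4 MOE430B probe sets it was -0.03, and ran from -0.09 to 0.02 with 1 replicate left out, so it has no settled sign. The median SD was 0.31 on MOE430A, 0.21 to 0.33 with 1 replicate left out. On MOE430B it was 0.29, 0.098 without replicate 1 and 0.15 without replicate 3, and 0.38 without replicate 2. The cause was not tested, and 4 probe sets carry it. The median of replicate 1 minus replicate 3 over the induced probe sets, added after the data were seen, was 0.48 and ran from 0.42 to 0.53 under the other pseudocounts, filters, quantile normalization and 1 probe set per gene. The 5 induced probe sets more than 2-fold apart became 3 when each array had to pass the floor. Oas1a and Ifi35 left the count because their replicate 3 values, which make the difference, were under the floor. With no filter there were 6, and both settings were also added after the data were seen.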
